A study of Mus musculus with 14 samples.

Results

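Oxidative phosphorylation in the mouse is built by 5 complexes of the inner mitochondrial membrane, and the nuclear genes that encode their subunits are described here in adult neural stem cells. The members were chosen by symbol, as the Nduf, Sdh, Uqcr, Cox4 to Cox8, Atp5 and Cyc1 genes without pseudogenes and predicted genes, which gave 86 of the 33800 gene identifiers in the series. Complex I, NADH dehydrogenase, has 35 of them. Complex II, succinate dehydrogenase, has 4. Complex III, the cytochrome bc1 complex, has 9. Complex IV, cytochrome c oxidase, has 20, with Ndufa4 and Ndufa4l2 counted there, because the Ndufa4 protein is known as a complex IV subunit despite its name. Complex V, ATP synthase, has 18. A further 12 pseudogenes matched the symbols and were left out.

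Complexes I to IV pass electrons from NADH and succinate to oxygen and, except for complex II, pump protons. Complex V lets the protons flow back to make ATP. Most subunits are encoded in the nucleus and imported, while a small core of complexes I, III, IV and V is encoded by mitochondrial DNA. Several complex IV and complex V subunits exist as paralogs used in different tissues, for instance Cox6a2, Cox7a1 and Cox8b, which are known from heart and skeletal muscle. In the adult brain, quiescent neural stem cells are known to rely more on glycolysis and fatty acid oxidation, and oxidative phosphorylation genes are known to go up on activation and differentiation.

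The cells came from the subventricular zone, a stem cell niche of the adult mouse brain. Single-cell data of 2 kinds were made with oligo(dT) capture on the 10x platform. These were wildtype cultures kept for 3 days in BMP4, a factor that drives stem cells into quiescence, or for 3 days in EGF, a mitogen, and freshly isolated, untreated cells of mice labelled Aplp1 knockout (APLP1-/-, lacking a homologue of the amyloid precursor protein) or wildtype control. Each fresh library mixes 3 mice, which carry hash tags on antibodies against MHC class I and CD45. The remaining data are bulk RNA immunoprecipitations (RIP) from untreated neurospheres, with 2 libraries each of a CPEB4 precipitate from cells labelled knockout, a wildtype CPEB4 precipitate, a wildtype IgG precipitate and wildtype input. CPEB4 is a cytoplasmic protein that binds the 3′ untranslated regions of mRNAs and acts on their poly(A) tails. The labels do not say which gene part was deleted, nor whether the RIP replicates are separate cultures, so p-values there measure the spread between these libraries only.

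The BMP4 library had 887 cells and 17313999 counts and the EGF library 1410 cells and 33603623 counts. The fresh libraries were far shallower, with 1227695 counts over 1879 cells in the Aplp1 knockout library and 1133263 counts over 2209 cells in the wildtype library. The RIP libraries held 10054346 to 17466296 counts. Single-cell libraries shared 1 to 13 cell barcodes pairwise. All 86 members were in the culture tables, 83 in the RIP table and 78 in both fresh tables. Ndufa13, Cox4i1 and Cox8c were not analysed in the RIP data. A RefSeq gene on either strand overlaps 27 members, for example Rnf113a1 with Ndufa1, and neither the strand setting of the counting nor the treatment of reads shared with pseudogenes is given in the sources used here, so their counts are uncertain to that extent.

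The promoters of the members were read from RefSeq (GRCm38.p6) as a window from 250 bases before to 50 bases after the start of each gene, and 69 members had one. 3 motifs known for nuclear mitochondrial genes were searched on both strands. The NRF1 motif (GCGCA, 1 base of any kind, then GCGC) was in 16 of the 69 promoters (23.2%), against 4.78% of all 27025 promoters in the table. The ETS motif CCGGAAG, bound by the GABPA protein, was also in 16 (23.2%), against 9.12% of all. The YY1 motif AAGATGGC was in 9 (13.0%), against 2.88% of all. At least 1 of the 3 was in 36 member promoters (52.2%) and in 15.2% of all promoters, and in no member promoter did sites of different motifs overlap. A match describes the letters only. The stretches below are 30 bases around a match in members that later mark the ends of the culture comparison or form complex II. Capitals mark the motif, and each stretch is given 5′ to 3′ on the strand of its gene.
Sdha, NRF1, chr13:74350231-74350260, minus strand: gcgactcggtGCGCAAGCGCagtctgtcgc
Sdha, NRF1, chr13:74350276-74350305, minus strand: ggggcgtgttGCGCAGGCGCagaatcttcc
Sdha, NRF1, chr13:74350319-74350348, minus strand: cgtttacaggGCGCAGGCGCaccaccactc
Sdhb, ETS, chr4:140961265-140961294, plus strand: ggctcggagaaaCCGGAAGcggccttccac
Sdhd, NRF1, chr9:50603909-50603938, minus strand: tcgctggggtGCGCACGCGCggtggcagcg
Sdhd, ETS on the opposite strand, chr9:50603878-50603907, minus strand: accgtctcctgcCTTCCGGttcacgcttca
Uqcr11, ETS, chr10:80406870-80406899, minus strand: tttctctcctccCCGGAAGtagatgtcaat
Ndufs4, YY1, chr13:114388045-114388074, minus strand: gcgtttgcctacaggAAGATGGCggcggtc
Atp5g2, NRF1, chr15:102671070-102671099, minus strand: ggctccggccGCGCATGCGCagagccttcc
Members high in BMP4 (Sdha, Uqcr11) and members high in EGF (Ndufs4, Atp5g2) thus both carry matches. Other members at the ends had a promoter without a match. Among them were Ndufa1, Cox8b, Cox7a1 and Atp5s, higher in BMP4, and Ndufc2, Cox5a and Atp5g1, higher in EGF.

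In the cultures, relative to library totals, most nuclear subunit genes were modestly higher in BMP4 than in EGF cells (66 of 85, or 47 of 85 after trimmed-mean scaling, when 48.3% of all genes were), and complexes III and IV stood higher than complexes I and V. There is 1 library per condition, so no test is possible, and the values below are CPM, the usual scaling of counts to the library total, with 95% exact intervals of the ratio that cover counting error only. Of the 86 members, 85 had 10 or more counts over both libraries, and Cox8c had none in either. The median log2 ratio of BMP4 over EGF was 0.27 over the 85 members and 0.15 over all 14502 genes with as many counts, and 66 of the 85 were above 0, against 55.9% of all genes. Large ratios were less frequent among the members than among all genes: 7 members (8.24%) were 2-fold or more higher in BMP4, against 23.1% of all genes, and 0 were 2-fold or more lower, against 15.4%. The median log2 ratio was 0.13 in complex I (25 of 35 above 0), 0.26 in complex II (2 of 4), 0.42 in complex III (8 of 9), 0.39 in complex IV (18 of 19) and 0.16 in complex V (13 of 18). The trimmed-mean (TMM) factor moved every log2 ratio down by 0.20, which left complex III at 0.23 and complex IV at 0.20 but put complex I at -0.07 and complex V at -0.03, so no direction is given for those 2 complexes.

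**Figure D1:**
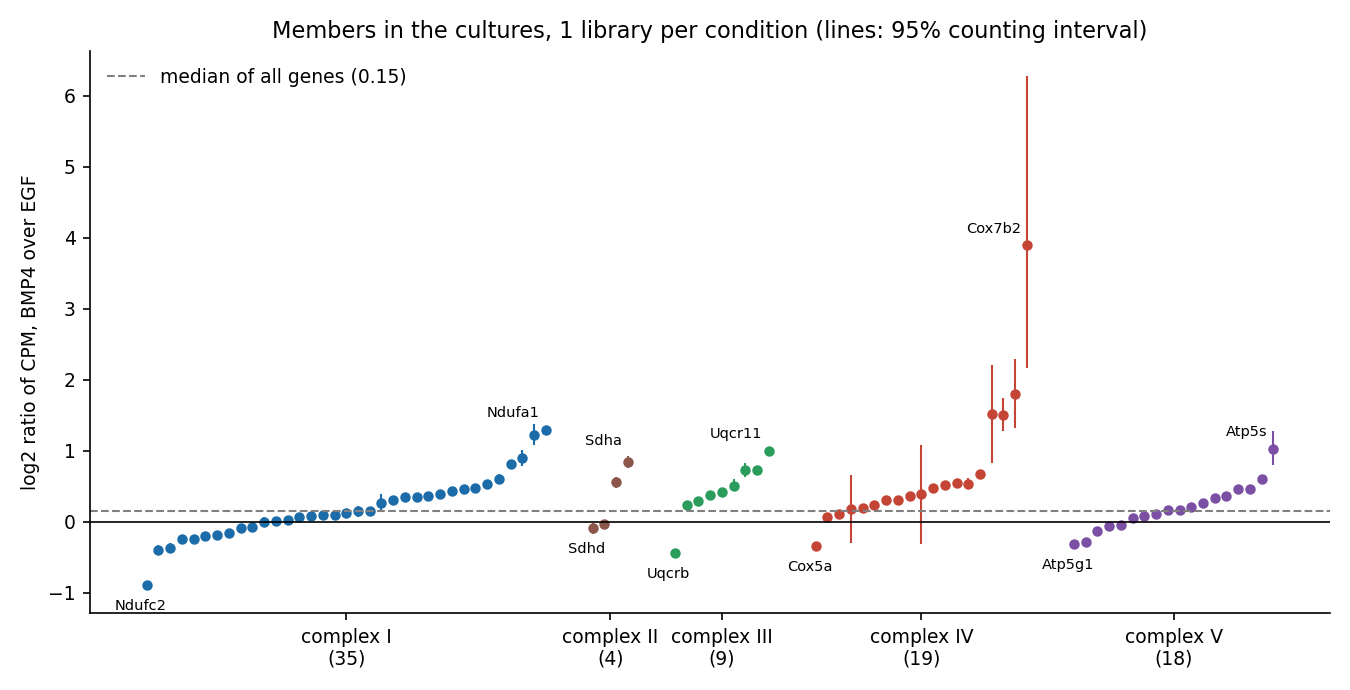
Log2 ratio of BMP4 over EGF CPM for each member, by complex, with 95% exact intervals for counting error, 1 library per condition. Most points of complexes III and IV lie above 0, and no member lies at -1 or below.

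In complex I, Ndufa1, a small membrane subunit encoded on the X chromosome (X:37187588-37191238), had the highest ratio among members with 100 or more counts, at 575 CPM in BMP4 and 235 CPM in EGF, a ratio of 2.45 (2.38 to 2.52). Ndufs1, the large iron-sulfur subunit of the electron-input arm, had 46.4 CPM in BMP4 and 19.8 CPM in EGF, a ratio of 2.34 (2.11 to 2.60). Both stood apart from the complex I median. At the other end, Ndufc2, an accessory membrane subunit, had 490.2 CPM in BMP4 and 911 CPM in EGF, and was 1.86-fold higher in EGF (1.81 to 1.90). Ndufs4, an accessory subunit whose loss in mice models Leigh syndrome, had 133 CPM in BMP4 and 175 CPM in EGF, 1.31-fold higher in EGF (1.25 to 1.38). The rest of complex I ran from a ratio of 0.775 for Ndufs8, an iron-sulfur subunit, to 1.87 for Ndufv1, the subunit that binds NADH. Subunits of 1 complex were therefore found on both sides of equality, at distances far beyond counting error.

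Complex II was divided in the same way. Sdha, the flavoprotein that oxidises succinate (13:74322255-74350240), had 138 CPM in BMP4 and 76.9 CPM in EGF, a ratio of 1.79 (1.69 to 1.89). Sdhc, a membrane anchor, had 154 CPM in BMP4 and 105 CPM in EGF, a ratio of 1.47 (1.39 to 1.54). Sdhb, the iron-sulfur subunit, had 255 CPM in BMP4 and 262 CPM in EGF, with an interval of the ratio that includes equality (0.941 to 1.01). Sdhd, the other anchor, had 116 CPM in BMP4 and 124 CPM in EGF (ratio 0.937, 0.888 to 0.988). A pair of subunits thus stood higher in BMP4 and a pair close to equal.

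In complex III the small subunits Uqcr11 and Uqcr10 and the core subunit Uqcrc2 led. Uqcr11, a small subunit (10:80402997-80406821), had 1905 CPM in BMP4 and 954 CPM in EGF, a ratio of 2.00 (1.97 to 2.03). Uqcrc2, a core subunit, had 87.7 CPM in BMP4 and 53.1 CPM in EGF, and Uqcr10, another small subunit, had 1865 CPM in BMP4 and 1128 CPM in EGF, both with a ratio of 1.65. Only Uqcrb of the 9, a subunit near the ubiquinone site, was lower in BMP4, at 517 CPM against 701 CPM in EGF, 1.35-fold higher in EGF (1.32 to 1.39). Cyc1, the cytochrome c1 that hands electrons to cytochrome c, had 237 CPM in BMP4 and 201 CPM in EGF, a ratio of 1.18 (1.13 to 1.22). The rest of complex III ran from 1.22 for Uqcrq to 1.42 for Uqcrc1.

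In complex IV high ratios were found for paralogs at low level. Cox8b, known from muscle, had 6.01 CPM in BMP4 and 1.73 CPM in EGF, a ratio of 3.48 (2.50 to 4.88), and Cox7a1, also known from muscle (7:30184171-30186030), had 22.1 CPM in BMP4 and 7.77 CPM in EGF, a ratio of 2.84 (2.42 to 3.34). Cox6a2, the muscle isoform of Cox6a1, with 47 counts in BMP4 and 32 in EGF, had a ratio of 2.85 (1.78 to 4.62). Cox7b2, known from testis, had 23 counts in BMP4 and 3 in EGF, and the ratio of 14.9 has an interval of 4.50 to 77.4. Their widely expressed paralogs had smaller ratios: 1.43 for Cox8a (3524 CPM in BMP4 and 2465 CPM in EGF), 1.23 for Cox7a2 (1281 CPM in BMP4 and 1042 CPM in EGF), 1.39 for Cox6a1 (1261 CPM in BMP4 and 909 CPM in EGF) and 1.24 for Cox7b (827 CPM in BMP4 and 665 CPM in EGF). Cox7a2l, which acts in joining complexes III and IV, had 601 CPM in BMP4 and 571 CPM in EGF, a ratio of 1.05 that turns to a log2 ratio of -0.12 with the TMM factor. The isoform difference did not run through all pairs.

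Cox4i1, the ubiquitous isoform of subunit 4, had 1846 CPM in BMP4 and 1268 CPM in EGF, a ratio of 1.46, whereas Cox4i2, its isoform known from lung and low oxygen, had 3.47 CPM in BMP4 and 3.07 CPM in EGF with an interval of the ratio that includes equality (0.808 to 1.57). Cox6b2, known from testis, had 152 CPM in BMP4 and 105 CPM in EGF, a ratio of 1.45, and its paralog Cox6b1 had 1394 CPM in BMP4 and 1292 CPM in EGF, a ratio of 1.08 that becomes a log2 ratio of -0.09 with the TMM factor. Ndufa4 had 1387 CPM in BMP4 and 1087 CPM in EGF, a ratio of 1.28, and Ndufa4l2, known as a gene of the hypoxia response, had 1.79 CPM in BMP4 and 1.37 CPM in EGF (interval of the ratio 0.802 to 2.11). Cox5a, a matrix-side subunit, was lower in BMP4, at 500.1 CPM against 633 CPM in EGF, 1.27-fold higher in EGF. The rest of complex IV were Cox5b, with a ratio of 1.14 that falls within the TMM shift, Cox7c, with 1.18, and Cox6c, with 1.59, all small nuclear subunits found in most tissues.

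In complex V, Atp5a1, the alpha subunit of the catalytic head, had 489.8 CPM in BMP4 and 324 CPM in EGF, a ratio of 1.51. Atp5s, known as coupling factor B and named Dmac2l in RefSeq, had 17.0 CPM in BMP4 and 8.33 CPM in EGF, a ratio of 2.04 (1.73 to 2.42). The membrane ring of ATP synthase has a single kind of subunit encoded by 3 genes with the same mature protein, and these did not move as 1 gene. Atp5g1 had 740.0 CPM in BMP4 and 925 CPM in EGF, 1.25-fold higher in EGF, and Atp5g2 had 1012 CPM in BMP4 and 1234 CPM in EGF, 1.22-fold higher in EGF. Atp5g3 had 783 CPM in BMP4 and 699.6 CPM in EGF, a ratio of 1.12, which becomes a log2 ratio of -0.04 with the TMM factor. The order of the 3 genes does not depend on that factor. The rest of complex V ran from 0.915 for Atp5c1, the gamma subunit of the rotor, to 1.37 for Atp5e and Atp5mpl.

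Related gene lists gave a mixed picture in the same libraries. The 13 mitochondrially encoded subunit genes were all higher in BMP4, with a median log2 ratio of 0.64 (12 of 13 above 0 with the TMM factor); mt-Nd4l, a complex I subunit, had a ratio of 1.81 and mt-Atp8, a complex V subunit, 1.79. Tricarboxylic acid cycle genes were above 0 for 14 of 17 (median 0.59), with Ogdh, of the oxoglutarate dehydrogenase, at 2.35, while isocitrate dehydrogenase Idh2 was 1.94-fold higher in EGF. Assembly factors, which build the complexes but are no part of them, were above 0 for 23 of 48 (median -0.06), with Cox15, for heme A synthesis, at 1.96 and Coa7 3.32-fold higher in EGF. Of 14 regulators of mitochondrial biogenesis 4 were above 0 (median -0.45), led by the coactivator Ppargc1a at 3.04, while its relative Ppargc1b was 2.58-fold higher in EGF. Among electron carriers and ATP export genes 9 of 13 were above 0 (median 0.17, or -0.02 with the TMM factor). Of the 13, 2 were 2-fold or more higher in BMP4 and 0 lower, against 23.1% and 15.4% of all genes. Cytochrome c, Cycs, was 1.56-fold higher in EGF, which was not the largest change in the list. Glycolysis genes were above 0 for 7 of 16 (median -0.07), and the ends lay far apart, with phosphofructokinase Pfkm 7.08-fold higher in BMP4 and hexokinase Hk2 5.01-fold higher in EGF.

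The conditions also differed in cell cycle and cell state. All 20 S phase and all 20 G2/M genes were 2-fold or more lower in BMP4, with summed levels of 180.4 CPM in BMP4 and 830.1 CPM in EGF for S phase and of 157 CPM in BMP4 and 1672 CPM in EGF for G2/M, and 13 of 15 quiescent stem cell and astrocyte markers were 2-fold or more higher in BMP4. Of 12 oligodendrocyte markers 4 were 2-fold or more higher in BMP4 and 2 lower (1748 CPM in BMP4 and 1372 CPM in EGF), with Mog at 0 in both. Microglial markers summed to 9.53 CPM in BMP4 and 9.05 CPM in EGF, with 8 of 12 at 0. Mature neuron markers summed to 11.7 CPM in BMP4 and 119 CPM in EGF. The part of the glial and neuronal markers in the ratios was not tested.

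The cell cycle was examined within each culture. Cells were called cycling if they had a count of Mki67, Top2a or Cdk1 after each was thinned to 4500 counts. In BMP4, the 64 cycling cells had a median member log2 ratio over the 823 non-cycling cells of -0.18, with 77 of 85 members below 0, against 42.2% of all genes. In EGF, the 751 cycling cells had a median of -0.20 over the 659 non-cycling cells, with 82 of 84 below 0, against 43.3% of all genes. Relative to total counts, members were thus lower in cycling than in non-cycling cells of both libraries. Between the non-cycling cells alone, the median log2 ratio of BMP4 over EGF was 0.18 over all members, against 0.17 over all genes, with 57 of 85 members above 0, against 57.0% of all genes. It was 0.02 in complex I, 0.24 in complex II, 0.30 in complex III, 0.25 in complex IV and 0.07 in complex V. The cells without a count of those 3 genes still differed in cycle genes, with a median log2 ratio of -2.99 over the 20 S phase genes and of -3.57 over the 20 G2/M genes, so the part of the cell cycle in the member ratios was not tested by this split.

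Counted per cell, the members took a median of 5.49% of all counts in BMP4 cells (interquartile range 4.77 to 6.16%) and 4.26% in EGF cells (3.77 to 4.95%). Complex IV took 1.85% in BMP4 and 1.36% in EGF, complex III 0.794% in BMP4 and 0.536% in EGF, and complex I 1.30% in BMP4 and 1.08% in EGF. The mitochondrially encoded genes took 9.15% in BMP4 and 6.12% in EGF. Since a share depends on every other gene in the cell, these values and the ratios above are relative to total RNA counts, not amounts per cell.

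**Figure D2:**
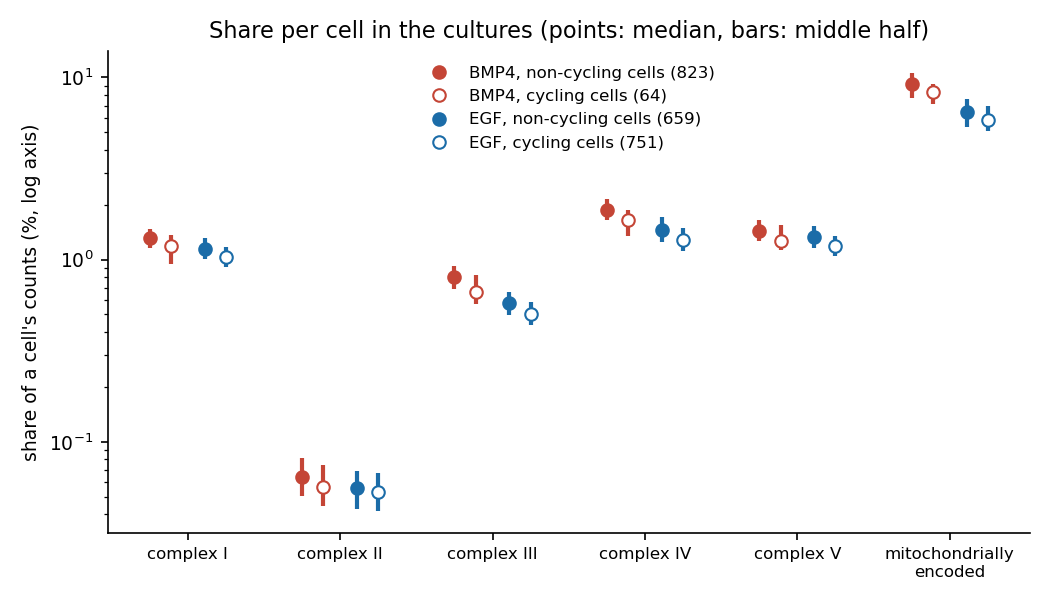
Share of a cell's counts on each complex and on the mitochondrially encoded genes, in percent on a log axis, for non-cycling (filled) and cycling (open) cells of the BMP4 and EGF cultures; points are medians over cells and bars the interquartile range. In both cultures the cycling medians lie below the non-cycling ones, and within each class of cells the BMP4 medians lie above the EGF ones.

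In freshly isolated cells, no member differed between the Aplp1 knockout and wildtype libraries past the test. The targeted gene was checked in every sample. Aplp1 had 54 counts (44.0 CPM) in the library labelled knockout and 246 counts (217 CPM) in the wildtype library. By mouse it had 0, 7 and 0 counts in the knockout-labelled mice and 4, 15 and 22 counts in the wildtype mice, so 1 mouse labelled knockout (94.2 CPM) was close to the lowest wildtype mouse (101 CPM), and directions below are those of the labels. Counts were summed per mouse by hash tag, over 116 to 157 cells per knockout mouse and 82 to 239 cells per wildtype mouse. Because each genotype is 1 library, genotype and library cannot be told apart. Members reached the depth needed for the test in 16 cases, of 1109 genes tested. The edgeR quasi-likelihood test with Benjamini-Hochberg adjustment called 0 of the 16 (0% of all genes called), and at an unadjusted p under 0.05 it had 0 of the 16 and 61 of all genes (5.50%). DESeq2, which covered 75 members and 11271 genes, called 0 members, with 2 of the 75 at an unadjusted p under 0.05, against 1.18% of all genes. The median log2 fold change of the 16 was 0.03, with 8 above and 8 below 0.

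At this depth single members are known from few counts. Atp5b, the catalytic beta subunit of complex V and among the deepest counted members, had 13, 31 and 23 counts in knockout mice and 11, 26 and 38 counts in wildtype mice (log2 fold change -0.11, SE 0.44). Cox8a had 22, 20 and 17 counts in knockout mice and 14, 23 and 22 counts in wildtype mice (log2 fold change -0.03, SE 0.46). For both the groups overlap. Ndufa12, the complex I member with the smallest p, had 9, 13 and 17 counts in knockout mice and 0, 8 and 15 in wildtype mice (log2 fold change 0.93, SE 0.71, edgeR adjusted p = 1). Over the whole libraries Ndufa12 went the other way, with 144 counts in the knockout library and 172 in the wildtype library, a ratio of 0.773 (0.615 to 0.970).

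Summed over the members, the tagged cells gave 7429.8, 6793 and 7188 CPM in the knockout mice and 6356, 6464 and 6423 CPM in the wildtype mice, which do not overlap. Over the whole libraries, most of whose cells have no clear tag, the order was the opposite, with 6463 CPM in the knockout library (6321 to 6606) and 6701 CPM in the wildtype library (6551 to 6853). These sums have no test, and their directions disagree, so no direction is given. Over whole libraries 75 members had 10 or more counts, with a median log2 ratio of knockout over wildtype of -0.06, against 0.00 over 10311 genes, and 2 were 2-fold or more higher and 3 lower, against 8.46% and 8.98% of all genes. Ratios whose counting intervals leave out equality were found in both directions. Ndufs4 had 44 counts in the knockout library and 19 in the wildtype library, a ratio of 2.14 (1.22 to 3.88). Atp5g1 had 182 counts in the knockout library and 106 in the wildtype library, a ratio of 1.58 (1.24 to 2.03). Uqcrc1, a core subunit of complex III, had 35 counts in the knockout library and 69 in the wildtype library, a ratio of 0.468 (0.302 to 0.713). These 3 were named after their values were seen.

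The summed level of the members varied with the class of fresh cell. Cells were clustered without the member genes, and 9 of 15 clusters could be named from markers. Cells in unnamed clusters made up 19.6% of the knockout library and 15.5% of the wildtype library. In quiescent stem cell or astrocyte-like cells the members summed to 7639 CPM in the knockout library (754 cells, 7336 to 7951) and 7614 CPM in the wildtype library (1236 cells, 7364 to 7870.3). In active stem cell or transit amplifying-like cells they summed to 6299 CPM in the knockout library (419 cells, 6080.2 to 6524) and 6306 CPM in the wildtype library (312 cells, 6037 to 6584). Neuroblast-like cells had 4927 CPM in the knockout library (227 cells, 4566 to 5309.9) and 5654 CPM in the wildtype library (244 cells, 5259 to 6071). The order quiescent, active, neuroblast was thus the same in both libraries, with a quiescent over active ratio of 1.21 in each. In the wildtype library the active and neuroblast intervals overlap, so that step is not beyond counting error there.

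Mature neuron-like cells had 7551 CPM in the knockout library and 10251 CPM in the wildtype library, from 44 cells in the knockout library and 20 in the wildtype library. Microglia or macrophage-like cells were the lowest, with 2710.0 CPM in the knockout library and 2226 CPM in the wildtype library, from 42 cells in the knockout library and 30 in the wildtype library. By complex, the stem cell classes differed in complex I, at 3182 CPM in knockout and 3204 CPM in wildtype quiescent-like cells, against 2307 CPM in knockout and 2174 CPM in wildtype active-like cells. Complex II had 289.9 CPM in knockout and 398 CPM in wildtype quiescent-like cells, against 214 CPM in knockout and 217 CPM in wildtype active-like cells. Complex III had 876 CPM in knockout and 983 CPM in wildtype quiescent-like cells, against 703 CPM in knockout and 644 CPM in wildtype active-like cells. Complexes I to III were thus higher in quiescent-like cells of both libraries, but only complex I had intervals that stayed apart in both. In the knockout library the quiescent-like and active-like intervals overlapped for complex II (233 to 356 and 175 to 258). They also overlapped there for complex III (775 to 986 and 631 to 781). For complex IV the libraries disagreed, with 1685 CPM in knockout and 1442 CPM in wildtype quiescent-like cells, against 1352 CPM in knockout and 1490.2 CPM in wildtype active-like cells. In quiescent-like cells complex V had 1605 CPM in knockout (1468 to 1752) and 1586 CPM in wildtype (1473 to 1705). In active-like cells it had 1723 CPM in knockout (1609 to 1842) and 1780.3 CPM in wildtype (1639 to 1931). These intervals overlap between the classes in both libraries, so no direction is given for complex V. The classes were defined from the same cells, so these levels are a description without a test. Median counts per cell also differed, at 334 in knockout and 304 in wildtype quiescent-like cells and 906 in knockout and 856 in wildtype active-like cells, and the part of depth in the levels was not tested. In neuroblast-like cells complex I had 1456 CPM in the knockout library (1263 to 1671) and 2076 CPM in the wildtype library (1839 to 2334), which do not overlap in counting error, without replication. The same held for complex I in mature neuron-like cells (2586 to 3614 in knockout, 3987 to 6051 in wildtype). It also held for complex V in endothelial or mural-like cells, from 3 counts in knockout and 14 in wildtype. In quiescent-like and active-like cells the complex I intervals of the libraries overlapped. These cases were picked by their values from all classes and complexes.

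**Figure D3:**
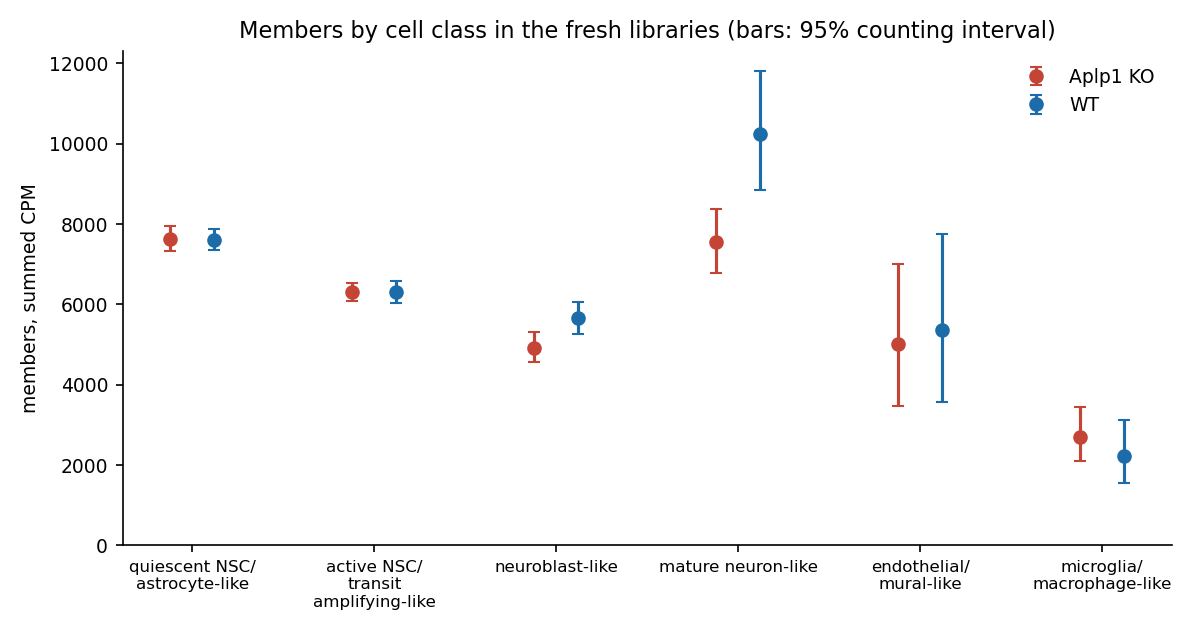
Summed member CPM in each class of freshly isolated cells, Aplp1 knockout and wildtype libraries side by side, with 95% exact intervals for counting error. Quiescent-like cells lie above active-like and neuroblast-like cells in both libraries, and microglia-like cells lie lowest.

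In the RIP libraries, the members were scarce in every precipitate compared with input, whichever antibody was used. They took 0.112 and 0.0708% of counts in the precipitates labelled CPEB4 knockout, 0.103 and 0.096% in the wildtype CPEB4 precipitates, 0.0798 and 0.0862% in the IgG precipitates, and 1.62 and 1.75% in the inputs. All 6 precipitates lay far below both inputs, and the precipitates lay close to each other. For complex V, which took the largest share in every library, it was 0.0416 and 0.0282% in the knockout-labelled, 0.0392 and 0.039% in the wildtype CPEB4 and 0.0313 and 0.034% in the IgG precipitates, against 0.57 and 0.649% in the inputs. In such bulk libraries fewer cells of a type and less RNA per cell cannot be told apart.

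**Figure D4:**
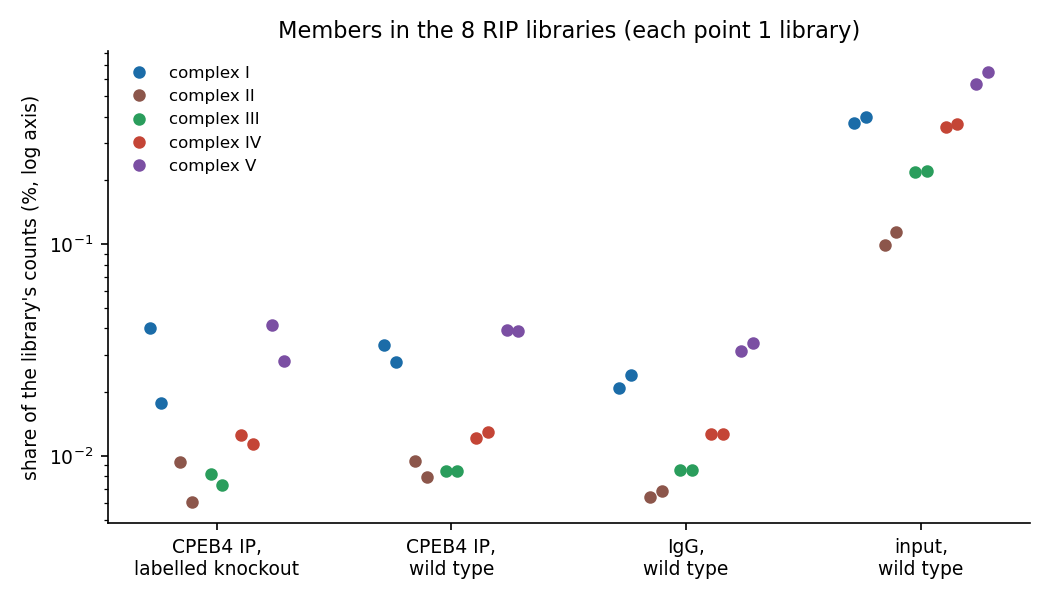
Share of library counts on the members of each complex, in percent on a log axis, in the 8 RIP libraries. Every precipitate lies far below both inputs in each complex, and the 3 kinds of precipitate lie close together.

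The libraries themselves differed in ways that bear on these values. The 10 highest genes took 32 and 64.2% of counts in the knockout-labelled precipitates, 42.1 and 49.8% in the wildtype CPEB4 precipitates, 63.9 and 59.8% in the IgG precipitates, and 3.92 and 4.5% in the inputs. The TMM scaling factors ran between 0.428 and 2.86 in step with this. The mitochondrially encoded genes were listed at 0 in both inputs and held 7185 to 152925 counts in the precipitates, so no fold is given for them. Cpeb4 itself had 286 and 110 CPM in the knockout-labelled precipitates, 236 and 77 CPM in the wildtype CPEB4 precipitates, 23.8 and 67 CPM in the IgG precipitates, and 46.3 and 39.5 CPM in the inputs. Its counts do not mark out the libraries labelled knockout, and they are called by their label here.

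Between the precipitate labelled CPEB4 knockout and the wildtype CPEB4 precipitate, no member passed the test. The edgeR quasi-likelihood test over 17062 genes called 0 of the 79 members tested (0% of all genes called), with 1 member and 136 genes (0.797%) at an unadjusted p under 0.05, and DESeq2 called 0. The 1 member was Ndufb3, with 82 and 27 counts in the knockout-labelled precipitates and 36 and 28 in the wildtype CPEB4 precipitates, which overlap. The median log2 fold change was 0.35 over the members, with 75 of 79 above 0, against 0.06 and 57.7% for all genes. Scaled by library totals it was -0.11, with 18 above 0 (all genes -0.19), and without the second knockout-labelled library it was -0.31, so the direction is not given. Cox8a, for instance, had 153 and 184 counts in the knockout-labelled precipitates and 139 and 151 in the wildtype CPEB4 precipitates (log2 fold change 0.95, SE 0.62, edgeR adjusted p = 1).

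Set against IgG, the wildtype CPEB4 precipitate held no member above or below at the threshold. edgeR called 0 of 79 (0% of all genes called), with 27 members and 1360 genes (7.97%) at an unadjusted p under 0.05, and DESeq2 called 14 genes, 0 of them members. The median log2 fold change was -0.96 over the members, against 0.00 over all genes, and 6 of 79 members were above 0, against 50.1% of all genes. With library totals the member median was 0.08, against 1.02 over all genes, and 46 of 79 members were above 0, against 88.8% of all genes. The sign of the member median thus depended on the scaling. It lay below that of all genes in both, but a change of scaling shifts all genes nearly alike, so this is no separate check. When only these 2 groups were fitted, 14 of 77 members were called lower in the CPEB4 precipitate, against 2.58% of all genes. Uqcr10 had 51 and 53 counts in wildtype CPEB4 precipitates, against 65 and 60 in IgG precipitates (log2 fold change -1.64, SE 0.66, edgeR adjusted p = 0.601). Ndufs4 had 935 and 402 counts in wildtype CPEB4 precipitates, against 111 and 230 in IgG precipitates (log2 fold change 0.67, SE 0.55, edgeR adjusted p = 0.677). No complex stood out: the medians were -0.92, -0.68, -1.10, -0.89 and -1.03 for complexes I to V.

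Against input, most members were depleted from the wildtype CPEB4 precipitate. edgeR called 71 of 79 lower at an adjusted p under 0.05, against 27.6% of all genes called lower, and 0 higher, against 27.4% of all genes. At an unadjusted p under 0.05 it had 72 members in either direction, against 61.1% of all genes, and DESeq2 called 70 lower, against 20.4% of all genes, and 0 higher. The median log2 fold change was -2.95 over the members and -0.09 over all genes; with library totals these were -4.43 and -1.57, with 74 members called lower, against 46.4% of all genes. By complex, 30 of 34 in complex I (median -2.80), 4 of 4 in complex II (-2.39), 9 of 9 in complex III (-3.48), 13 of 14 in complex IV (-3.26) and 15 of 18 in complex V (-2.68) were lower.

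In complex I, the smallest p belonged to Ndufb3, an accessory membrane-arm subunit (log2 fold change -3.06, SE 0.39, edgeR adjusted p = 0.000549), followed by Ndufb5 (-2.94), of the same arm, and Ndufv3 (-2.76), of the NADH-oxidising module. In complex II, Sdhc (-2.53), Sdhb (-2.26), Sdhd (-2.97) and Sdha (-1.53) were all lower; Sdha had 624 and 524 counts in wildtype CPEB4 precipitates, against 5498 and 6024 in inputs. In complex III, Uqcr10 (-5.08), Uqcrh (-3.16), known as the hinge protein, and Uqcrq (-4.36), another small subunit, led, and Uqcr10 had 51 and 53 counts in wildtype CPEB4 precipitates, against 7021 and 5441 in inputs. In complex IV, the leaders were Cox7b (-3.31), Cox6b1 (-3.24) and Cox7a2 (-3.40). In complex V they were Atp5e, the epsilon subunit of the head (-4.56, SE 0.52, edgeR adjusted p = 0.00038), Atp5mpl (-3.75), a small membrane subunit, and Atp5j (-2.95), coupling factor 6. Each of these had precipitate counts below both inputs.

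Paralogs were depleted unequally. Of the ring subunit genes, Atp5g3 had a log2 fold change of -4.15, Atp5g1 of -1.62 and Atp5g2 of -1.45. Cox8a was at -4.68, with 139 and 151 counts in wildtype CPEB4 precipitates, against 13560 and 12714 in inputs, and Cox6a1 was at -4.62. Cox6b2 was at -2.93 and Cox7a2l at -2.05. Ndufa4 was at -3.58, and its paralog Ndufa4l2 had 0 and 1 counts in wildtype CPEB4 precipitates, against 50 and 16 in inputs.

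The 8 members not called, singled out after their values were seen, were Ndufs5 (-0.86), Ndufb4 (0.50), Ndufs4 (0.52), Ndufs1 (-0.19), Cox7a1 (0.44), Atp5l (-0.92), Atp5o (-0.04) and Atp5s (0.01). Ndufs4 had 935 and 402 counts in wildtype CPEB4 precipitates, against 1641 and 1582 in inputs. Atp5o, the subunit that joins the head of complex V to its stalk, had 1646 and 1522 counts in wildtype CPEB4 precipitates, against 5888 and 5566 in inputs. Their log2 fold changes lie near 0 after TMM scaling while their shares of the library are lower in the precipitates, and Ndufs4 was at -0.94 with library totals and at -0.16 without the first wildtype CPEB4 library.

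The IgG precipitate, which has no specific target, showed a like picture against the same inputs. edgeR called 61 of 79 members lower, against 15.6% of all genes called lower, and 1 higher, against 18.2%, with a median log2 fold change of -1.88 over the members and -0.13 over all genes; with library totals these were -4.39 and -2.62. By complex 27, 3, 9, 12 and 10 members of complexes I to V were lower. Leading members were Ndufb5 (-2.20) in complex I, Sdhc (-1.97) in complex II, Uqcrq (-3.26) in complex III, Cox7b (-2.52) in complex IV and Atp5e (-2.68) in complex V. The single member called higher was Ndufb4 at 1.40 (edgeR adjusted p = 0.0293), an accessory complex I subunit, and it was at -1.11 with library totals. Of the ring subunit genes Atp5g3 was lower in IgG (-2.54), and Atp5g1 (-0.58) and Atp5g2 (-0.13) were not called. Ndufa4l2 had 0 counts in both IgG libraries and 50 and 16 in the inputs, which makes it at least 1.17-fold lower with a floor of 3 counts per library. The count of 61 fell whenever 1 library was left out, as did the count of all genes called lower. What lowers them was not tested. With 1 library left out the median over the members stayed between -2.03 and -1.74. Both comparisons share the inputs, so their likeness is no independent result.

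Lists of related genes were depleted in part. In the wildtype CPEB4 precipitate against input, 24 of 46 assembly factors were lower and 3 higher (median -1.22), with Sdhaf1, for complex II assembly, at -4.02 and Nubpl, for complex I assembly, at 1.86. Of the tricarboxylic acid cycle genes 13 of 17 were lower (median -1.59), led by malate dehydrogenase Mdh2 at -2.75. Among electron carriers and ATP export genes 8 of 13 were lower (median -2.15), led by the ADP/ATP carriers Slc25a4 (-3.78) and Slc25a5 (-3.39). For glycolysis 12 of 16 were lower (median -1.67), with Aldoc, an aldolase, at -3.04 and Ldha, lactate dehydrogenase, at -2.98. Only the regulators of mitochondrial biogenesis had a median above 0 (0.35), with 4 of 14 higher, among them Esrrg at 5.14 and Ppargc1b at 4.26, and 2 lower; with library totals their median was -1.11, with 2 higher and 5 lower, so no direction is given. Against the same inputs the IgG precipitate had 16 of 46 assembly factors and 6 of 17 cycle genes lower. It also had 7 of 13 carriers and 8 of 16 glycolysis genes lower. Of the 14 regulators 3 were higher there and 1 lower (median 0.17). Of all genes, 27.6% were lower and 27.4% higher in the wildtype CPEB4 precipitate against input. For IgG against input these shares were 15.6% and 18.2%. The share of regulators called higher thus lay near that of all genes in both comparisons.

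Gene length moved with the depletion, also outside the pathway. Members whose gene spans under 10 kb had a median log2 fold change of -3.14 in the wildtype CPEB4 precipitate against input (56 members, 51 lower, against 56.0% of all genes in that class), and members of 10 kb or more one of -2.05 (23 members, 20 lower, against 15.4%). Over all tested genes with a RefSeq span the medians were -1.73 for 4829 short genes and 0.45 for 10695 long ones. Short and long genes differed in the same sense in IgG against input, with member medians of -2.06 and -1.38 and medians over all genes of -1.23 and 0.20. Within each length class the member median lay below that of all genes in both comparisons. The part of gene length in the member values was not tested further.

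**Figure D5:**
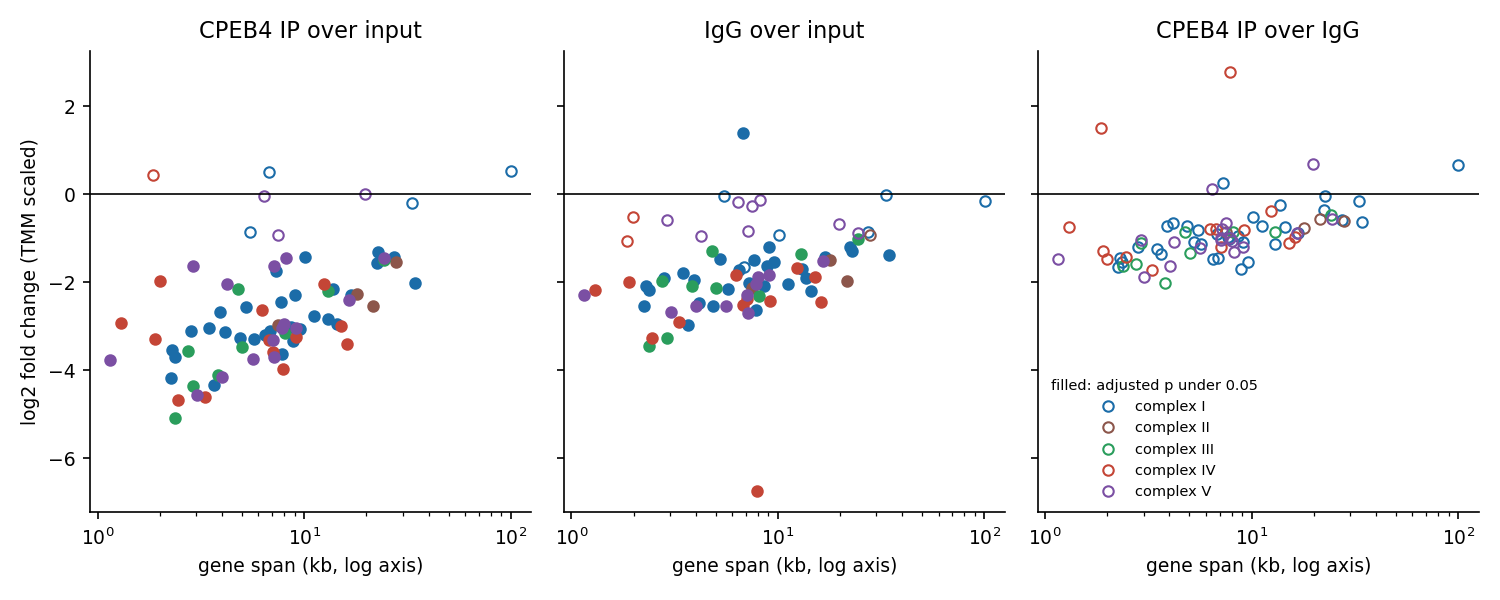
Log2 fold change (TMM scaled) of each member against the genomic span of its gene in kb on a log axis, for the wildtype CPEB4 precipitate over input, IgG over input and the wildtype CPEB4 precipitate over IgG; filled points have an edgeR adjusted p under 0.05. Members of short genes lie lower than members of long genes on the whole. Ndufs4, the tested member of widest span, is at 0.52 over input for the CPEB4 precipitate. The fitted value of Ndufa4l2, at 0 counts in IgG, is the point far below the rest in the middle panel and is no bound.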

How the data were processed

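All values start from raw counts that the authors deposited, by gene for each cell or RIP library and by hash tag for each barcode. Bowtie2, SAMtools, Cell Ranger and the mm10 build are named in the submitters' processing notes, without versions, and the annotation and cell filters were not given in the sources used. Members and lists were chosen with earlier results of these data known. Ndufa4 was placed in complex IV, clusters were named, the 10 kb limit was set and the 1000-count background was added after the data had been seen.

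Cultures were compared as CPM with exact 95% ratio intervals, leaving out genes under 10 counts, and no test, with 1 library each. Cells were clustered on genes other than the members, and a cluster was named if at least 3 of a list's markers were 2-fold higher, and no fewer than were not, and its top genes did not point elsewhere. A cluster without a marker of the list among its 10 top genes needed more markers 2-fold higher. So a cluster of 183 cells, with 4 of 4 detected ependymal markers 2-fold higher, stayed unnamed. Its top genes began with Nr4a1, Klf4, Fosb and Fos, and only 4 of the 8 listed ependymal markers were detected in it. No doublet caller was run. Fresh cells were given to mice by 10 or more tag counts, 75% of 1 tag. RIP and per-mouse counts were tested with edgeR 4.0.16 (TMM, filterByExpr, quasi-likelihood, Benjamini-Hochberg, 0.05) in R 4.3.3, all 4 RIP groups in 1 fit, with DESeq2 1.42.0 as an alternative. Scripts were tested on simulated data. Intervals and floors of 3 counts cover counting error only, and at these depths 3 counts are 0.173 CPM in BMP4, 0.0893 CPM in EGF, 2.44 CPM in the Aplp1 knockout and 2.65 CPM in the wildtype library.

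Named with values were, per complex, the 2 highest and 2 lowest culture ratios with 100 or more counts, the paralog sets, the 3 smallest adjusted p per direction in each tested contrast, and complex II; from other lists, genes with the largest changes, of which 1 is not reported here. Promoter sequences and gene positions came from RefSeq, GRCm38.p6.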

Additional observations from a re-analysis of the deposited data

How the results depend on the processing

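In the cultures the TMM factor gave member medians of 0.07 over all, -0.07, 0.06, 0.23, 0.20 and -0.03 in complexes I to V, and the non-cycling cells gave 0.02, 0.30 and 0.25 in complexes I, III and IV. Among genes with 1000 or more counts, chosen after seeing the data, 2 of 78 members were 2-fold or more higher in BMP4, against 16.1% of all genes. In all 19 members turned below 0 with the TMM factor, among them Atp5g3 (-0.04), Cox6b1 (-0.09), Cox7a2l (-0.12), Cox4i2 and Cox5b, and Cox6b1 (-0.01) and Cox7a2l (-0.04) also in non-cycling cells. With library totals the RIP medians were -0.11 for the knockout-labelled against the wildtype CPEB4 precipitate, 0.08 for that against IgG, -4.43 against input and -4.39 for IgG against input, where 0 members were then higher. Without a filter on low counts 2 of 83 members were lower than in IgG, against 115 of 27144 genes. The median against input was then -3.22 with 1 member higher, against 5445 of all genes. In IgG against input 0 members were higher, against 3190 of all genes. Fitting only the 2 groups compared gave 14 of 77 members lower than in IgG, against 2.58% of all genes. Leaving out 1 library gave medians of -0.31 to 0.86 for the knockout-labelled precipitate, -1.10 to -0.75 against IgG, -3.03 to -2.89 against input and -2.03 to -1.74 for IgG against input, with 60 to 68 members lower against input, and 2 to 25 lower and 0 higher in IgG. Against input, library totals put Ndufs4 at -0.94, Ndufb4 at -0.98, Atp5s at -1.45 and Cox7a1 at -1.05, and Ndufb4 in IgG at -1.11. Leaving out 1 library put Ndufs4 at -0.16 to 0.93, Cox7a1 at -0.87 to 1.10 and Atp5s at -0.44 to 0.30 (-0.13 without the second input), and Atp5s was at -0.26 without the filter. The cause of these moves was not tested. Replicate numbers were shared by the RIP groups, but deviations of same-numbered libraries correlated between -0.37 and 0.33 over genes, so the numbers do not pair the libraries. With a replicate block, 0, 0, 71 and 60 members were lower in the 4 contrasts in the order above. Of all 17062 genes, 0, 0, 4514 and 2376 were lower. In IgG 1 member was higher, against 3071 of all genes. Atp5s was at -0.02 in the wildtype CPEB4 precipitate against input. In the fresh libraries 16 members passed the filter on low counts, 75 were covered without it and 41 with 3 or more tag counts; 0 were called in each.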
